A study of Drosophila melanogaster with 2 samples.

Results

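The genes for small nuclear RNAs and small nucleolar RNAs were examined for regions bound by Hr38, a nuclear receptor and the Nr4a relative of the fly. All genes with the biotype snRNA or snoRNA on the 7 chromosome arms of the Ensembl BDGP6 annotation were taken, which gave 301 of 18277 annotated genes, transposable elements left out. Of these, 32 were snRNA genes and 269 were snoRNA genes. Chromatin came from whole white prepupae of mixed sex, labelled as 48 h old, of a stable transgenic line that expresses Hr38 with GFP at its C-terminus. Hr38-GFP was immunoprecipitated with an anti-GFP antibody after sonication in 2 biological replicates, which form the only group. A control experiment named in the labels was not analysed here, and no level without the fusion protein is given. Whole animals mix all tissues, so a region says nothing about the cells in which the protein was bound. A gene was scored when a region of a deposited dm6 list had its summit within 500 bp of the gene. Genes are not replicates and there is 1 group, so no test was made. The spread is shown by both replicates side by side and by the same gene intervals moved around each arm in 99 equal steps (circular shifts).

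snRNAs are the RNA cores of the splicing machinery. U1, U2, U4, U5 and U6 serve the major spliceosome, and U11, U12, U4atac and U6atac the minor one, while U7 acts in the 3′ end processing of histone mRNAs and 7SK RNA holds the elongation factor P-TEFb inactive. Their genes carry their own promoters with a proximal sequence element, and are read by RNA polymerase II or, for U6, U6atac and 7SK, by polymerase III. snoRNAs guide the chemical modification of ribosomal RNA: box C/D snoRNAs direct 2′-O-methylation and box H/ACA snoRNAs direct pseudouridylation, and the related scaRNAs guide modification of snRNAs. In flies most snoRNAs are cut out of introns of a host transcript, so that the promoter of the host also makes the snoRNA. Hr38 binds DNA as a monomer at AAAGGTCA-type sites and has roles in cuticle formation and as an activity-induced gene in neurons.

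The 4 lists differ in what they hold. The thresholded list (768 regions) is the optimal set of a reproducibility analysis made from both replicates. The pooled list (19279 regions) and the lists of replicate 1 (30000 regions) and replicate 2 (29031 regions on the arms) hold peaks and background by design. Scores are the deposited ones, whose scale is not stated in the sources used here, and ranks run from the highest score in each list. The median score was 106 in the thresholded list, 34.8 in the pooled list, with 20.4 in replicate 1 and 16.4 in replicate 2. The summit lay within 1 bp of the middle of the region for 99.6% of pooled regions, so it marks the position of the region more than an inner maximum.

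The promoters of the snRNA genes are shown first, because most snoRNA genes are made from the promoter of a host and snRNA genes from their own. The letters TTCNCAA, which are part of the fly proximal sequence element A, were searched in the 80 bases before each gene. On the gene's strand the letters were found at 31 of 32 snRNA genes, starting 64 to 55 bases before the gene, and searching both strands gave the same 31 genes or 96.9%. The same 80-base window held them on the gene's strand at 4.46% of 269 snoRNA genes and 2.86% of all 18277 genes, and on either strand at 5.37% of all genes. The only snRNA gene without a match was snRNA:7SKb. The lines below give 10 of these windows, read from the release 6 assembly of RefSeq (the build of dm6) 5′ to 3′ on the strand of the gene, with the matched letters in capitals. The first 6 genes have a region in the pooled list, U6:96Aa and U4atac have one in replicate 1 alone, and U1:95Cc and U7 have none in any list.
snRNA:7SKa, chr3R:7474997-7475076, minus strand: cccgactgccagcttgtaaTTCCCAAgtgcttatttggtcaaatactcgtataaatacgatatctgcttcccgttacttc
snRNA:7SKb, chr3R:23432789-23432868, plus strand: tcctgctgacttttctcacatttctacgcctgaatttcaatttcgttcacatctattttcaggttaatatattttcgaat
snRNA:U11, chr3L:3893331-3893410, minus strand: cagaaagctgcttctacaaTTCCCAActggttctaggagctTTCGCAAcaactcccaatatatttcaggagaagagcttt
snRNA:U12, chr3L:16653689-16653768, plus strand: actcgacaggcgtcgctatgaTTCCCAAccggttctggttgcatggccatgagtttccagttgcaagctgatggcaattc
snRNA:U5:35D, chr2L:15751683-15751762, minus strand: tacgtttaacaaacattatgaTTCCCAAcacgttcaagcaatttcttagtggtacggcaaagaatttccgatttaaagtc
snRNA:U2:34ABa, chr2L:13212117-13212196, minus strand: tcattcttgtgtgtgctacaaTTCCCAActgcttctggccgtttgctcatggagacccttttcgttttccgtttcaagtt
snRNA:U6:96Aa, chr3R:24556008-24556087, plus strand: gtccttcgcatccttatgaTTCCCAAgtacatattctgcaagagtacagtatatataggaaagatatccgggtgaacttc
snRNA:U4atac, chr3R:5195164-5195243, minus strand: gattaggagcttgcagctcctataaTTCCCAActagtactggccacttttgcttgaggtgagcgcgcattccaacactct
snRNA:U1:95Cc, chr3R:23826254-23826333, plus strand: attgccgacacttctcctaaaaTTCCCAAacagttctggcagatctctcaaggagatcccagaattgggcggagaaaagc
snRNA:U7, chr3L:3593743-3593822, plus strand: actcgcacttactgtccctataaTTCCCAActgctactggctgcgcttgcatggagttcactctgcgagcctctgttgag
Taking the best pooled region of each of the 6 genes, no summit lay before its snRNA gene: 4 were inside the gene and 2 beyond its end. U11 had a second pooled region, with its summit in the 500 bp before the 5′ end. In replicate 1, 2 of 9 summits lay before the gene, and in replicate 2, 4 of 6. Among snRNA genes with a region, the core letters start at positions -64 to -55 relative to the gene, apart from 7SKb, which lacks them. Among those without a region they start at positions -60 to -57. The letters TATA, read on the gene's strand with a start 40 to 15 bases before the gene, were present at 8 of 32 snRNA genes, against 17.9% of all genes. These 8 included all 3 U6 genes, U6atac and 7SKa, together with U4:39B, U11 and U5:14B.

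No snRNA gene had a summit of the thresholded list within 500 bp. In the lists that include background, 6 of 32 snRNA genes had a region in the pooled list (18.8%), 9 had one in replicate 1 (28.1%) and 6 in replicate 2 (18.8%). The 6 genes of the pooled list, 7SKa, U11, 7SKb, U5:35D, U2:34ABa and U12, were the 6 of replicate 2, and all had a region in replicate 1 as well. Each of the 3 others in replicate 1 (U6:96Aa, U4atac and U4:25F) lacked a region in replicate 2. For comparison, 5.07% of all genes had a summit within 500 bp of the gene in the thresholded list, 45.8% in the pooled list, with 53.3% in replicate 1 and 58.4% in replicate 2. Most genes are far longer than an snRNA gene, so the share at 5′ ends is closer in window size: 2.71% in the thresholded list, 21.1% in the pooled list, with 23.9% in replicate 1 and 32.2% in replicate 2. The snRNA share was near this background for pooled regions and for replicate 1, and below it for replicate 2.

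Moved around the arms, the intervals of the snRNA genes met a pooled region in 18.1% of cases on average, with a range from 0% to 43.8% over the shifts. The mean was 26.2% in replicate 1 (3.13% to 53.1%) and 24.7% in replicate 2 (3.13% to 53.1%). For the thresholded list, where the observed share was 0%, it was 0.568% (0% to 9.38%). The observed snRNA shares lay inside all of these ranges, which are wide for 32 genes. The 8 local shifts, by 5000 to 50000 bp to either side, gave 20.7% for the pooled list (6.25% to 31.3%), 29.3% for replicate 1 (6.25% to 43.8%) and 34.4% for replicate 2 (21.9% to 46.9%). The snRNA share of 18.8% in replicate 2 was below each of these local shifts, and the shares of the other two lists were inside the local ranges. The best pooled regions of the 6 snRNA genes had a higher median score than those met at shifted positions, 39.4 against 34.4. Their median pooled rank was 6035, against 10123 after shifting. Replicate 2 had the same order, with a median rank of 10168 at snRNA genes and 13648.5 at shifted positions. Replicate 1 did not, with a median rank of 15100 at snRNA genes and 14859 at shifted positions. No range over the shifts is given for these medians. Of the 6 best pooled summits at snRNA genes, 3 lay within 500 bp of a protein-coding start site, against 17.8% of the whole pooled list.

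**Figure D1:**
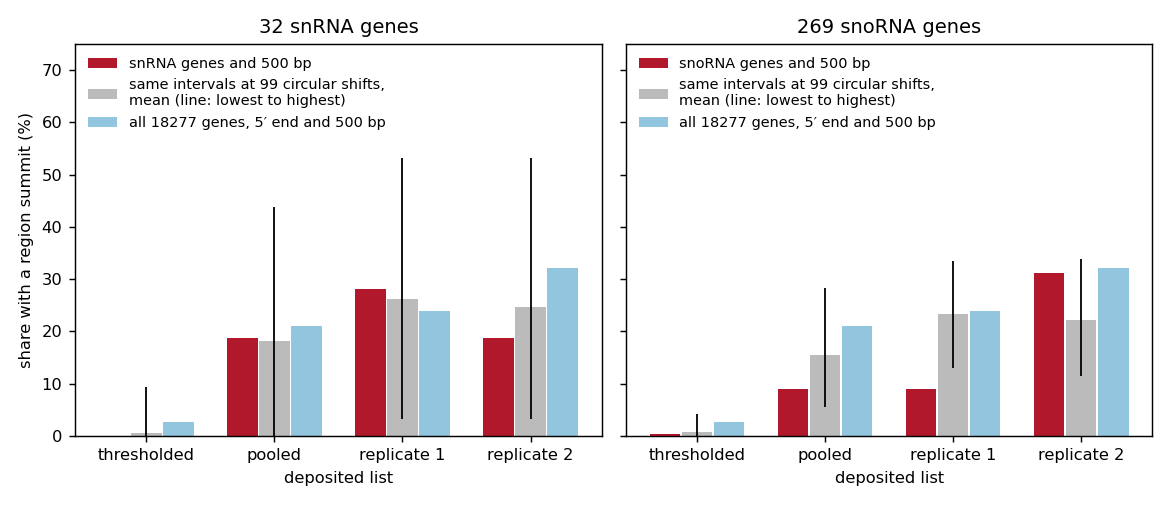
Share of genes (in %) with a region summit in each of the 4 deposited lists, for 32 snRNA genes (left) and 269 snoRNA genes (right), as red bars. Grey bars give the mean of the same intervals at 99 circular shifts with a line from the lowest to the highest shift, and light blue bars give all 18277 genes within 500 bp of the 5′ end. The snRNA shares lie inside the range of the shifts in every list, and the snoRNA share of 8.92% in replicate 1 lies below the lowest shift at 13.0%.

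Among polymerase III genes, 7SKa (chr3R:7474553-7474996, minus strand) had the highest score of the snRNA genes. Its region scored 49.8 in the pooled list at rank 2470, 33.2 in replicate 1 at rank 1952 and 17.9 in replicate 2 at rank 11147. The summit lay inside the transcribed part in all 3 lists, 307 to 382 bases after the first base. A stronger region of the thresholded list, with a score of 114 and rank 320, lay 602 bp from 7SKa and so outside the distance of 500 bp; it sits at a start site of CG1142, whose intron holds scaRNA:MeU5-C46. 7SKb (chr3R:23432869-23433272, plus strand) scored 40.0 in the pooled list, with 28.8 in replicate 1 and 14.6 in replicate 2. Its replicate summits lay on opposite sides, 491 bases after the first base in replicate 1 and 485 bases before it in replicate 2, so that they mark 2 places and not a shared one. U6:96Aa, 1 of 3 U6 genes that stand side by side, had a region in replicate 1 (29.1, rank 3601) with its summit 305 bases before the gene, and none in replicate 2. U6:96Ab, U6:96Ac and U6atac had no region in any list.

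Of the minor spliceosome, U11 (chr3L:3893056-3893330, minus strand) had 2 regions in the pooled list. The better one scored 40.1 at rank 5611, and the best replicate regions scored 26.5 in replicate 1 and 19.0 in replicate 2. The summit lay 219 bases after the first base in replicate 1 and 354 bases before it in replicate 2. A start site of the protein-coding gene Fie is 337 bp from the better pooled summit. It is 380 bp from the summit of replicate 1 and 953 bp from that of replicate 2. U12 (chr3L:16653769-16654006, plus strand) scored 31.3 in the pooled list at rank 14009, 18.3 in replicate 1 at rank 21082 and 23.6 in replicate 2 at rank 4167. Its pooled summit lay 79 bases into the gene and its replicate 1 summit 89 bases into it, while that of replicate 2 lay 246 bases before the gene. U4atac, inside an intron of cno, scored 20.4 in replicate 1 alone.

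Of the major spliceosome, 2 genes of multicopy families had pooled regions. U5:35D (chr2L:15751557-15751682, minus strand), 1 of 7 U5 genes, scored 38.9 in the pooled list, with 19.6 in replicate 1 and 20.9 in replicate 2, with summits 483 to 499 bases after the first base in the 3 lists. These summits lie beyond the end of the 126-base gene and 105 to 121 bp from a start site of ND-B17, a subunit gene of mitochondrial complex I. U2:34ABa (chr2L:13211925-13212116, minus strand), 1 of 6 U2 genes, scored 36.6 in the pooled list, with 17.2 in replicate 1 and 16.3 in replicate 2, at ranks 8045, 24983 and 14922 of these lists. Its pooled summit lay 111 bases into the gene, and a start site of CG15482 is 191 bp from that summit. U4:25F, 1 of 3 U4 genes, scored 17.1 in replicate 1 alone, at rank 25024 of 30000. The 5 U1 genes, the other 5 U2 genes, the other 6 U5 genes, the other two U4 genes, snRNA:LU and U7 had no region in any of the 4 lists.

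**Figure D2:**
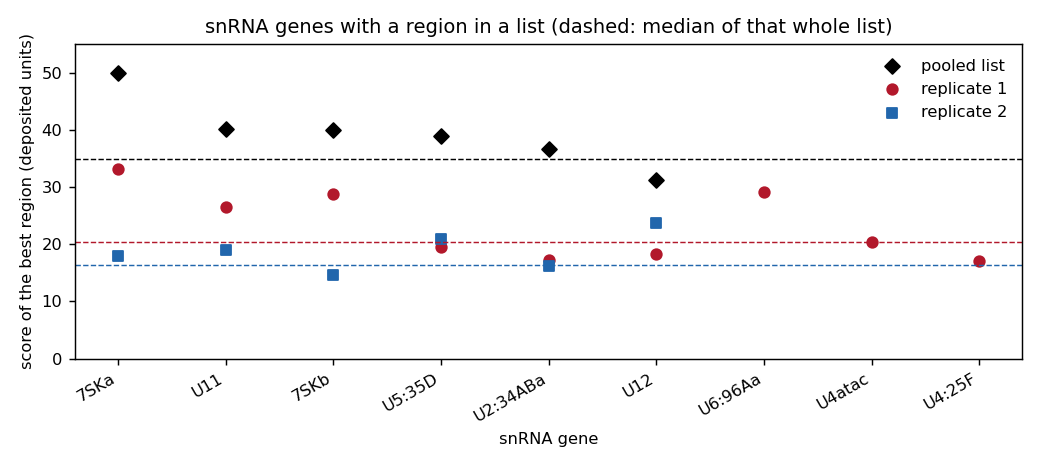
Deposited score of the best region within 500 bp (vertical axis) for the 9 snRNA genes with a region in a list, in the pooled list (black diamonds), replicate 1 (red circles) and replicate 2 (blue squares), with the median of each whole list as a dashed line of the same colour. 7SKa stands highest in the pooled list at 49.8 and in replicate 1 at 33.2, while in replicate 2 U12 is highest at 23.6.

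The windows of 201 bases around the pooled summits of U5:35D and 7SKa are printed because they show the only sequence of the nuclear receptor type near a printed snRNA region and the highest-scoring one. They are read from the plus strand of release 6, with AGGTCA (either strand) in capitals.
snRNA:U5:35D, chr2L:15751085-15751285, plus strand: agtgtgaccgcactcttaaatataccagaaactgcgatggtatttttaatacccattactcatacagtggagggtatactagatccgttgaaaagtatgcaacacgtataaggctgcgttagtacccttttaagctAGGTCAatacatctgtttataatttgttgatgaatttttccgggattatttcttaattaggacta
snRNA:7SKa, chr3R:7474589-7474789, plus strand: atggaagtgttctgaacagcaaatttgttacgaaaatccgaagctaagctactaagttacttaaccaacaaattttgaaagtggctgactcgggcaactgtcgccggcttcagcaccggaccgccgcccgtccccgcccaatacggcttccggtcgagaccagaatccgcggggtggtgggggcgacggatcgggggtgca
The window at U5:35D holds AGGTCA and the window at 7SKa holds none. Over all distinct best regions near snRNA and snoRNA genes, searched on both strands, AGGTCA occurred in 3 of 25 pooled regions (12%), against 5.11% of the whole pooled list. It occurred in 2 of 28 regions in replicate 1 (7.14%, whole list 5.28%) and in 6 of 61 in replicate 2 (9.84%, whole list 4.99%). The longer AAAGGTCA, which contains AGGTCA, was in none of the 25 pooled regions, none of the 28 of replicate 1 and 1 of the 61 of replicate 2, against 0.659%, 0.557% and 0.61% of those whole lists. These counts are too small for a comparison.

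Which snRNA genes had a region went along with how unique their sequence is. A gene was called unique to the extent that its 31-base words occur once in the assembly. All 9 snRNA genes with a value of 50% or more were fully unique at 100%: LU, U4:25F, U6atac, U7, U11, U12, U4atac, 7SKa and 7SKb. Of these 9 genes, 6 had a region in a list. The other 23 genes, in the families U1, U2, U4, U5 and U6, had values of 0% to 47.8%, and 3 of them had a region in a list (U5:35D, U2:34ABa and U6:96Aa). Counting the flanks of 500 bp, the median unique share was 100% for the 9 genes and 87.0% for the 23, so most of the scored interval of the repeated genes was unique. How reads that fit several places were treated is not given in the sources used here, and regions at near-identical copies such as U2:34ABa are uncertain. The part of sequence uniqueness in the missing regions was not tested. Only 10 of 269 snoRNA genes had a value under 50%, of which 3 had a region in a list.

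Among the snoRNA genes, 1 had a summit of the thresholded list within 500 bp, which is 0.372% of 269. It is the box H/ACA snoRNA Psi18S-1275 (FBgn0086663), in an intron of RpS29, a protein of the small ribosomal subunit. The gene is printed because it is the single member with a summit of the thresholded list within 500 bp. It is read from release 6 on its own strand, with no part marked.
snoRNA:Psi18S-1275, chr3R:9778398-9778537, plus strand: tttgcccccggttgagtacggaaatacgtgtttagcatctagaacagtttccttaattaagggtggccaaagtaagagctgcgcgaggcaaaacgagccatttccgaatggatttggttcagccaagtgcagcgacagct
The region scored 79.1 in the thresholded and pooled lists at rank 739, 40.6 in replicate 1 at rank 924 and 33.3 in replicate 2 at rank 1254. Its −log10 q value was 1.99 in the pooled list, with 0.815 in replicate 1 and 1.23 in replicate 2. At rank 739 of 768 it was among the weakest regions of the thresholded list. The summit lay 370 bases before the snoRNA gene and 14 bp from a start site of RpS29 in the pooled list, 11 bp in replicate 1 and 3 bp in replicate 2. The summit was thus closer to the start of the host than to the snoRNA gene. At shifted positions 0.725% of snoRNA intervals met a thresholded region on average, with a range from 0% to 4.09%.

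In the lists that include background, 24 snoRNA genes had a pooled region (8.92%), 24 had one in replicate 1 (8.92%) and 84 in replicate 2 (31.2%). Neighbouring snoRNA genes share regions: the 24 genes of the pooled list lie at 19 distinct regions, those of replicate 1 at 19, and those of replicate 2 at 55. The background at 5′ ends of all genes, given above, was 21.1%, 23.9% and 32.2%. Measured at their own 5′ ends, 7.06% of snoRNA genes had a pooled region, 8.18% had one in replicate 1 and 28.3% in replicate 2. Circular shifts gave a mean of 15.4% for the pooled list (5.58% to 28.3%), 23.2% for replicate 1 (13.0% to 33.5%) and 22.1% for replicate 2 (11.5% to 33.8%). The snoRNA share in replicate 1 was below every shifted value, and the other two shares were inside their ranges. Shifts by 5000 to 50000 bp to either side, which stay in the same neighbourhood, gave 19.0% for the pooled list, with 26.2% for replicate 1 and 27.4% for replicate 2. The lowest of these 8 local shifts was 11.5% for the pooled list and 19.3% for replicate 1, both above the share at the snoRNA genes, and in replicate 2 the local range of 21.6% to 36.1% held the observed 31.2%.

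The tRNA genes, another class of short noncoding genes, had shares of the same kind: of 290 genes, 10% had a pooled region, 10.3% one in replicate 1 and 25.5% one in replicate 2. tRNA genes thus had the same order of the replicates, but so did all genes at 5′ ends, with 23.9% in replicate 1 and 32.2% in replicate 2. snRNA genes had the opposite order, with 28.1% and 18.8%. Both replicate lists differ in base composition. The median GC content of the 201 bases around the summit was 47.8% in replicate 1 and 42.8% in replicate 2, and of all list regions 13.1% in replicate 1 and 19.7% in replicate 2 lay within 500 bp of a start site of a protein-coding gene. The median GC content of the snoRNA genes with their flanks was 40.8%, against 42.2% for 1364 windows placed evenly along the arms. snoRNA genes with a region in replicate 1 alone had a median of 46.2%, those with a region in replicate 2 alone had 40.0%, and the 170 with a region in neither had 40.1%. The part of base composition in the difference between the replicates was not tested.

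The replicates also differed at equal list length. Among the 5000 highest-scoring regions of each list, 4 snoRNA genes had a region in replicate 1 (1.49%, shifted mean 4.12%) and 13 in replicate 2 (4.83%, shifted mean 4.42%). Among the 10000 highest, 7 had one in replicate 1 (2.60%, shifted mean 8.38%) and 34 in replicate 2 (12.6%, shifted mean 8.36%). Among the 19279 highest, the length of the pooled list, 19 had one in replicate 1 (7.06%, shifted mean 15.6%, range 6.69% to 24.9%) and 71 in replicate 2 (26.4%, shifted mean 15.3%, range 6.69% to 29.4%). At that length both shares were inside the range of the shifts, so the replicate 1 share was below every shifted value in the full list and not here. Among the 768 highest, no snoRNA and no snRNA gene had a region in either replicate list. Along the flanks the share of snoRNA genes with a replicate 1 summit was lowest next to the gene, 4.46% in the 500 bp before its 5′ end and 3.72% in the 500 bp after it, and it was 11.9% in the bin that starts 3500 bp before the 5′ end. The replicate 1 bin that starts 500 bp after the 5′ end also had 4.46%, and the other bins ran from 6.32% to 13.4%. In replicate 2 the bins before and after the 5′ end and the bin at 3500 bp before it had 16.7%, 11.9% and 18.6%. The bin after the 5′ end was the lowest there by a small margin. It held 32 genes, against 33 in each of the bins that start 5000 bp before and 500 bp after the 5′ end. The pooled list was lowest in the 500 bp after the 5′ end too, at 3.35%. Neighbouring genes share summits in these bins.

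**Figure D3:**
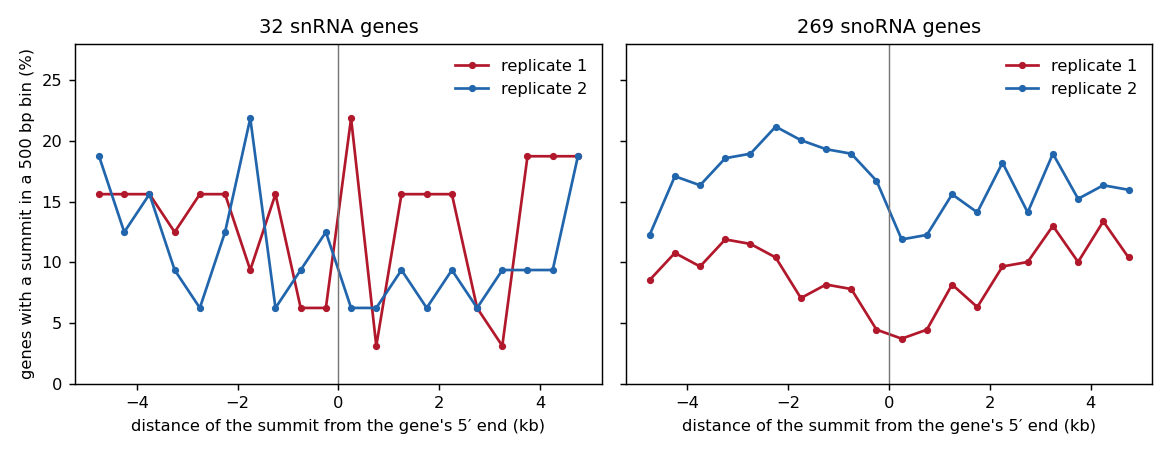
Share of genes (in %) with a summit in each 500 bp bin by distance from the gene's 5′ end in kb (negative is before the gene), for 32 snRNA genes (left) and 269 snoRNA genes (right), in replicate 1 (red) and replicate 2 (blue). Both snoRNA curves are lowest in the 500 bp bin after the 5′ end, at 3.72% in replicate 1 and 11.9% in replicate 2. In replicate 2 the bins that start 5000 bp before and 500 bp after the 5′ end are almost as low, at 12.3%. The snRNA curves move by single genes.

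Of the 269 snoRNA genes, 9 had a region in both replicates, 15 in replicate 1 alone, 75 in replicate 2 alone and 170 in neither. The 9 shared genes are 37.5% of those in replicate 1, while 31.2% of all snoRNA genes had a region in replicate 2. They are 10.7% of those in replicate 2, while 8.92% of all snoRNA genes had one in replicate 1. The overlap over all annotated genes was not counted. For 5 of the 9 the best summits lay within 200 bp of each other. Of the 32 snRNA genes, 6 had a region in both replicates, 3 in replicate 1 alone, 0 in replicate 2 alone and 23 in neither, and for 3 of the 6 the best summits lay within 200 bp. The 9 shared snoRNA genes are Psi18S-1275, Or-aca3, Me28S-A774b, Or-CD13, PsiU2-55, PsiU6-40, Psi18S-525k, abba-a and Psi18S-1389a. All but the last 3 also had a pooled region.

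**Figure D4:**
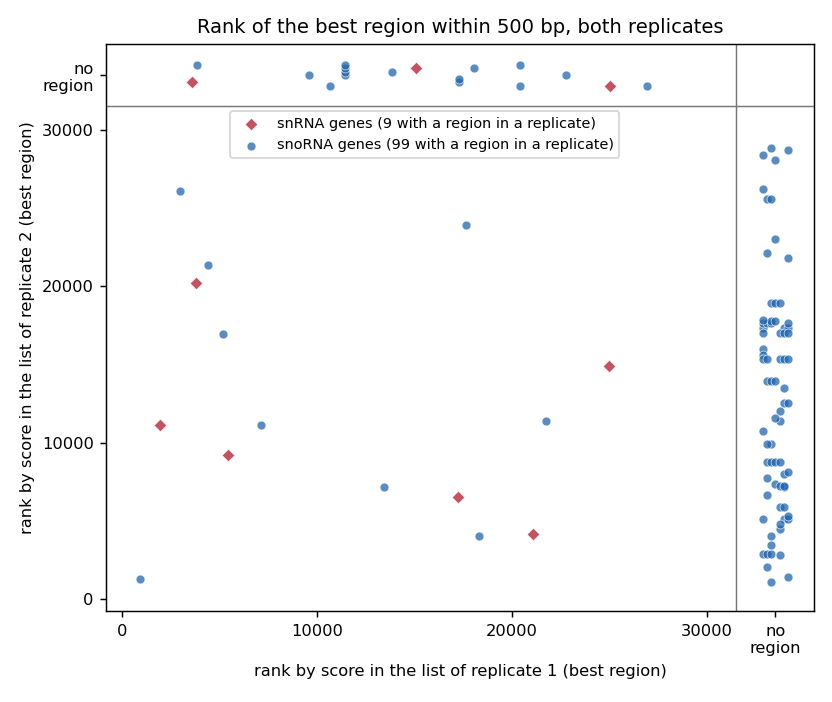
Rank by score of the best region within 500 bp in replicate 1 (horizontal) and replicate 2 (vertical) for the 9 snRNA genes (red diamonds) and 99 snoRNA genes (blue circles) with a region in at least 1 replicate. Genes without a region in a replicate stand in the strip marked no region, spread sideways or upwards for visibility. Psi18S-1275 (rank 924 and rank 1254) is the only gene near the lower left corner, and most snoRNA genes stand in the strip without a region in replicate 1.

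After Psi18S-1275, the snoRNA gene with the highest pooled score was Or-aca3, an orphan H/ACA snoRNA in an intron of the ribosomal protein gene RpL4. It scored 45.5 in the pooled list, 30.4 in replicate 1 (rank 2961) and 13.1 in replicate 2 (rank 26117), with the summit of replicate 1 at 598 bases after the first base and that of replicate 2 at 435 bases before it. Me28S-A774b, a box C/D snoRNA in RpS12, scored 43.6 in the pooled list, with 19.2 in replicate 1 and 23.9 in replicate 2. Its summits lay 34 bp, 74 bp and 59 bp from a start site of RpS12 in those lists, so this region also lies at the start of a ribosomal protein gene. Me28S-G764, a box C/D snoRNA in Arf1, scored 43.0 in the pooled list and 32.4 in replicate 2, and had no region in replicate 1. Or-CD13, which has no host, scored 42.2 in the pooled list, with 26.9 in replicate 1 and 15.6 in replicate 2.

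CG32479-b in Usp10 scored 41.0 in the pooled list and 23.2 in replicate 1, with no region in replicate 2. Me28S-C2789, a box C/D snoRNA with no host, scored 41.0 in the pooled list and 23.2 in replicate 2. Its summit lay 64 bases before the gene in the pooled list and 70 bases before it in replicate 2, 17272 bp from the nearest protein-coding start site in the pooled list, and replicate 1 had no region there. PsiU2-55, a scaRNA in the splicing factor gene Prp8, scored 38.9 in the pooled list, with 25.0 in replicate 1 and 17.9 in replicate 2, with its summit 481 bases after the first base in each of the 3 lists. Me28S-G3081a, the first snoRNA of Uhg1, scored 37.9 in the pooled list and 19.7 in replicate 2. The 13 snoRNA genes with the lowest pooled scores had 28.3 to 33.9, at ranks 10588 to 18976 of 19279. The highest score in replicate 2 was at Or-CD2 in Uhg4 (35.4, rank 1049), whose pooled region scored 31.4 and which had none in replicate 1.

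By class of guide, 11 of 91 box C/D snoRNA genes had a pooled region, 6 had one in replicate 1 and 29 in replicate 2 (31.9%). Of 114 box H/ACA snoRNA genes, 9 had a pooled region, 10 one in replicate 1 and 39 one in replicate 2 (34.2%). The 16 scaRNA genes had 2, 3 and 6 in these lists, and 48 snoRNA genes without a class in their name had 2, 5 and 10. By arm, none of the 31 snoRNA genes on the X had a region in replicate 1 and 8 had one in replicate 2. The counts were 2 in replicate 1 and 19 in replicate 2 of 41 genes on 2L, and 5 and 34 of 96 on 2R. The replicates were closer on 3L, with 8 and 10 of 52 genes, and on 3R, with 9 and 13 of 48. The single snoRNA gene on arm 4 had no region. Clustered genes share regions: the replicate 2 counts stand for 6 distinct regions on the X, 12 on 2L, 19 on 2R, 10 on 3L and 8 on 3R. RpS5a alone holds 14 of the snoRNA genes on the X, and Arpc2 holds 17 of those on 2L. The share over all genes of each arm was not counted, so these counts do not set the arms apart.

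Introns on the same strand held 243 of the 269 snoRNA genes, in 87 host genes, and 26 had no such host. Among the 45 snoRNA genes in noncoding hosts, mostly the Uhg genes that are known for carrying snoRNAs in their introns, 0 had a region in replicate 1 and 18 in replicate 2 (40.0%). These 18 genes lie at 9 distinct regions. The 75 in ribosomal protein genes had 8 in replicate 1 and 17 in replicate 2, and the 123 in other protein-coding genes had 15 and 37. Of the 26 without a host, 1 had a region in replicate 1 and 12 in replicate 2 (46.2%). In replicate 2 these stand for 14 distinct regions in ribosomal protein hosts, 22 in other protein-coding hosts and 10 at snoRNA genes without a host. The order of the classes differed between the replicates. The share at shifted positions was not counted by class, so these counts do not set the classes apart.

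The 11 hosts with 7 or more snoRNA genes show how few regions lie behind these counts. Arpc2, a subunit of the actin-nucleating Arp2/3 complex, has 17 snoRNA genes, of which 5 had a region in replicate 2, at 2 distinct regions, and none in replicate 1. Uhg1 has 16, of which 1 had a region in replicate 2. dom, the ATPase of a chromatin remodelling complex, has 15, of which 1 had a region in replicate 1 and 8 in replicate 2, at 3 regions. Uhg5 has 11, of which 7 had a region in replicate 2, at 2 regions, the better of which scored 22.4. Sf3b3, a splicing factor gene, has 9, of which 4 had a region in replicate 1, at 2 regions, and none in replicate 2. RpS7 has 7, of which 4 shared 1 region in replicate 1. Hrb98DE, an hnRNP gene, has 7, of which 5 shared 1 region in replicate 2. Uhg4 has 7, of which 2 had a region in replicate 2. RpS5a with 14, kra with 8 and Nop60B with 7, the last encoding the fly pseudouridine synthase of H/ACA particles, had no region at any snoRNA gene in any list.

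**Figure D5:**
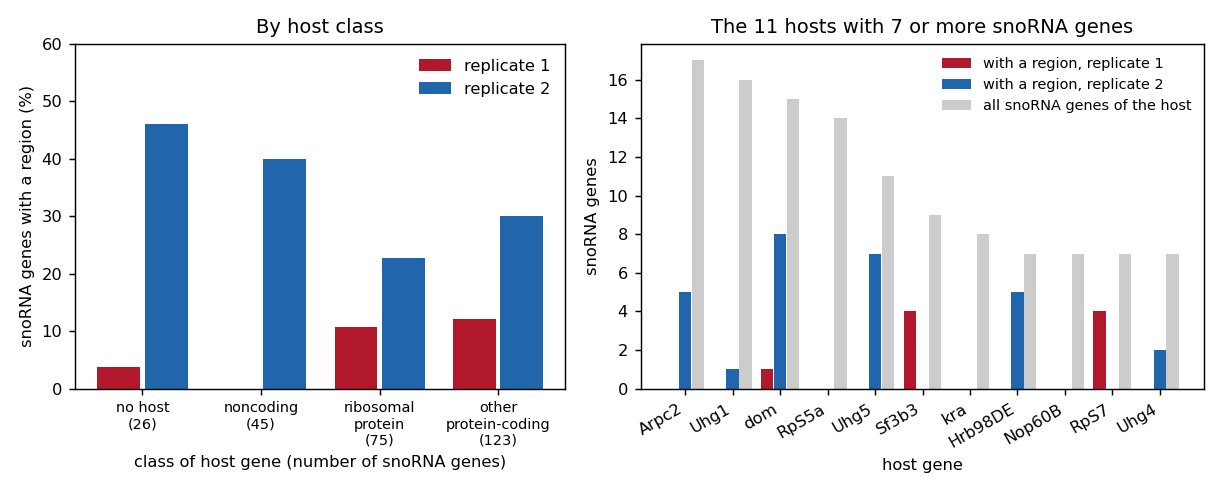
Left, share of snoRNA genes (in %) with a region in replicate 1 (red) and replicate 2 (blue) by class of host, with the number of snoRNA genes in brackets. Right, number of snoRNA genes with a region in replicate 1 (red) and replicate 2 (blue) and in all (grey) for the 11 hosts with 7 or more. Noncoding hosts have 0 of 45 in replicate 1 and 18 of 45 in replicate 2.

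Start sites of the protein-coding hosts gave higher shares than the snoRNA genes inside them. A host can have more than 1 start site, and so more windows than a snoRNA gene. The 7 noncoding hosts had 0% at start sites in the thresholded list and in replicate 1, 28.6% in the pooled list and 71.4% in replicate 2. Of 80 protein-coding hosts, 7.5% had a summit within 500 bp of a start site in the thresholded list, 37.5% in the pooled list, with 32.5% in replicate 1 and 56.3% in replicate 2. All 13968 protein-coding genes, measured at any start site, had 3.92%, 26.2%, 28.8% and 38.6%. The number of start sites per gene was not matched between the hosts and all protein-coding genes. The 7.5% stands for 6 hosts: Stt3A, RpS20, CG1142, Msp300, RpS29 and anchor. Their start sites scored 149 for Msp300, 147 for RpS20, 114 for CG1142, 114 for Stt3A, 90.9 for anchor and 79.1 for RpS29 in the thresholded list. Among these hosts the snoRNA gene itself was within 500 bp of the summit in RpS29 alone. Psi18S-1295 and Psi28S-2562 in RpS20 lay 653 and 969 bp from the thresholded summit of their host. RpS5a, with no region at its 14 snoRNA genes, had a region at its start site that scored 50.3 in the pooled list, with 25.4 in replicate 1 and 29.8 in replicate 2.

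The distance from a host's start site did not order the snoRNA shares in both replicates. Of 31 intronic snoRNA genes within 500 bp of a start site of their host, 9.68% had a region in replicate 1 and 41.9% in replicate 2. Of 88 that lie over 2000 bp away, 12.5% had one in replicate 1 and 27.3% in replicate 2. Of the 30 snoRNA genes within 500 bp of a protein-coding start site of any gene, 4 had a region in replicate 1 and 10 in replicate 2, and of the 239 others 20 and 74 had one.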

How the data were processed

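ChIP-seq of Hr38-GFP was measured in 2 biological replicates of whole white prepupae. The authors deposited region lists on dm6 that give a score, a −log10 q value and a summit offset within each region. The lists were taken as deposited. Per the file names, the replicate and pooled lists hold peaks with background as input for a reproducibility analysis (IDR), and the thresholded list is its optimal set from both replicates. No aligner, caller or IDR threshold is named in the sources used here. A control experiment is named in the labels but was not analysed. Read depth is unknown, and lists on dm3 were not used. The fly annotation was Ensembl release 115, and all list and gene coordinates fitted the release 6 arms. Regions on 7 arms were kept, 29031 of 29036 in replicate 2 and all in the other lists. A gene had a region where a summit lay within 500 bp of the gene, and the best region is the one with the highest score. A host is a gene on the same strand with the snoRNA gene between exons of 1 transcript. Circular shifts moved all gene intervals along their arm in 99 equal steps and local shifts moved them by 5000, 10000, 20000 and 50000 bp to either side, as a description without a test. The summit search was checked on planted positions. Named genes are those with a thresholded peak, up to 10 snRNA genes (6 had a pooled score) and 10 snoRNA genes with the highest pooled score (the last snoRNA place is not reported here), the best of each snRNA family and the 8 hosts with the most snoRNA genes (the last place is a tie); others were named after their values were seen. The genes and lists were chosen with earlier results of these data known. Python 3.11.15, numpy 2.4.6, pandas 2.3.3 and matplotlib 3.10.9 were used. Alternatives were other distances, the region's midpoint, 5′ ends only, the upper 50% of each list by score, each replicate alone, merged loci and local shifts.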

Additional observations from a re-analysis of the deposited data

How the results depend on the processing

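Counts depended on the distance allowed. For the thresholded list, 0 snoRNA genes had a summit within 250 bp and 4 within 1000 bp, and 1 snRNA gene (7SKa) had one within 1000 bp. The 1 gene also dropped to 0 in the upper 50% of the thresholded list by score and in the 768 highest regions of each replicate alone (0 to 0 without replicate 1 or replicate 2). For the pooled list, 8 snoRNA genes had a summit within 250 bp, 58 within 1000 bp and 9 in its upper 50%, and 10 snRNA genes had one within 1000 bp. With as many regions from 1 replicate as the pooled list holds, the snoRNA count was 19 without replicate 2 and 71 without replicate 1, and the snRNA count was 5 to 6.

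The same alternatives for the replicate lists were chosen after seeing the data. In replicate 1, 12 snoRNA genes had a summit within 250 bp, 59 within 1000 bp and 14 in the upper 50% of the list, and 4 snRNA genes had one in that part. In replicate 2, the snoRNA counts were 35 within 250 bp, 148 within 1000 bp and 46 in the upper 50%, and 49 of 116 loci when members within 1000 bp were merged, and the snRNA counts were 3 within 250 bp and 10 within 1000 bp. The midpoint of the region and 5′ ends alone left all 8 counts within 1.5 times. The difference between snRNA genes and their background reversed in 3 cases. Against local shifts it was -1.95 percentage points in the pooled list and -1.17 in replicate 1, and by 5′ ends it was 4.23 points above all genes in replicate 1. The cause was not tested. No paired analysis was possible because there is 1 group. Depth is unknown, so no counting error can be given.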
